A study of Mus musculus with 19 samples.

Results

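The 9 genes described here encode calcium/calmodulin-dependent protein kinase II (CaMKII), its protein inhibitors, calmodulin and neurogranin, out of 20436 genes in the count tables. They were taken by symbol: the kinase subunit genes Camk2a, Camk2b, Camk2d and Camk2g, the inhibitor genes Camk2n1 and Camk2n2, the neurogranin gene Nrgn, and the calmodulin genes Calm2 and Calm3. Hippocampal slices of wild-type male mice aged P28 to P42 were incubated for 5 min with vehicle (basal) or with 100 µM DHPG, an agonist of group 1 metabotropic glutamate receptors (mGluR1/5). All slices were then treated with 100 µg/ml cycloheximide, an inhibitor of elongation, and frozen. Slices of 6 mice were pooled per lysate and CA3 was left in place, per the study's methods. Each lysate gave an RNA-seq library and a library of ribosome-protected fragments (RPFs), the pieces of mRNA that lie under a ribosome. The libraries were 4 basal and 5 DHPG for RNA, and 5 basal and 5 DHPG for RPFs, so the DHPG RNA library of replicate 5 had no basal RNA partner.

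A calcium signal through NMDA or mGlu receptors is read in pyramidal neurons by calmodulin, which binds calcium and then opens the autoinhibited CaMKII holoenzyme. Neurogranin holds calmodulin when calcium is low and releases it when calcium rises, and the Camk2n proteins bind and block the active kinase. Camk2a and Nrgn mRNAs are well known to be carried into dendrites, where translation at synapses is thought to supply part of the protein.

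Several of these proteins are very small, and this bears on every RPF value given here, because the first and last 30 coding bases of each gene were left out of the RPF counts. The coding sequences of the 3 smallest are shown, read from the GENCODE M21 transcripts of mouse build GRCm38 (mm10), 5′ to 3′, with the bases that were counted for RPFs in capitals. Only 177 of 237 bases were counted for Nrgn and Camk2n1, and 180 of 240 for Camk2n2. Nrgn lies at chr9:37544492-37552904 on the minus strand, Camk2n1 at chr4:138454314-138460123 on the plus strand, and Camk2n2 at chr16:20619215-20621287 on the minus strand.
Nrgn: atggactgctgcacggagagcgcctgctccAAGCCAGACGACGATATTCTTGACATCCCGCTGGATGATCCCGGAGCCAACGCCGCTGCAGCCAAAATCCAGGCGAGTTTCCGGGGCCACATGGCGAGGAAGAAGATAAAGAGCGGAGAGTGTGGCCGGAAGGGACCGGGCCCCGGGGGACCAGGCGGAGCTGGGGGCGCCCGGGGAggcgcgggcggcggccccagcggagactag
Camk2n1: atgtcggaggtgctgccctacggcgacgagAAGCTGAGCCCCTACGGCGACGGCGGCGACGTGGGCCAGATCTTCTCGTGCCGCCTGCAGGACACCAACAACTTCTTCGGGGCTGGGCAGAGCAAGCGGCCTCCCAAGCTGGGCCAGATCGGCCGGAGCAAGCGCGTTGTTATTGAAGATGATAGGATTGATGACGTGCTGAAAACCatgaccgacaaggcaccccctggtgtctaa
Camk2n2: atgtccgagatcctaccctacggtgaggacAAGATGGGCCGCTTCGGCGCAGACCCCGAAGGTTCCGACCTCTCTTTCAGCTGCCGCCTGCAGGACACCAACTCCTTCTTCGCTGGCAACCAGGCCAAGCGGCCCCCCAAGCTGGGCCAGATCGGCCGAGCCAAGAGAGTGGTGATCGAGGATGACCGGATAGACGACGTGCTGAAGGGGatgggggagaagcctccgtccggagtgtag

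Calm2 (chr17:87433412-87446935, minus strand) and Calm3 (chr7:16915379-16924114, minus strand) encode the same protein. Their coding sequences are shown because reads from within them can be told apart only by silent differences. The first 150 coding bases of each follow, with the 23 bases that differ between the genes in capitals.
Calm2: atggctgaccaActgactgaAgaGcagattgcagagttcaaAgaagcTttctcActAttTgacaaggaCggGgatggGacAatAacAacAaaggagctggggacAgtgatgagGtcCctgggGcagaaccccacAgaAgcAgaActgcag
Calm3: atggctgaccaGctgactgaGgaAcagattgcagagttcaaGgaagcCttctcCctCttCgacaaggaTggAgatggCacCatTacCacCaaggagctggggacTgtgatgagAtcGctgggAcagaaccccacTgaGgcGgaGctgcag

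Over the whole 450 coding bases the pair differed at 78 positions, 74 of them the last base of a codon, and the longest run they shared was 17 bases, so that a 30-base footprint from one was never identical to the other. Both did share footprints with other annotated loci. Of the 361 windows of 30 bases in the counted part of the Calm2 coding sequence, 68.7% occurred unchanged in other annotated genes. The most common of these were Gm7308, Gm15720, Gm14480 and Gm7039. For Calm3 the share was 27.7% (Gm5881). Only uniquely aligned reads were kept before counting, so the RPF counts of Calm2, and less so of Calm3, are uncertain. At the 75-base read length used for RNA the shares were 3.89% for Calm2 and 1.26% for Calm3. For the other members the share of 30-base windows was at most 0.217%. Of the 9 genes, 8 had annotated bases enough before the start codon to read the -3 position, counted back from its A, and all 8 had a purine there, as did 84% of 20256 annotated genes. A G right after the start codon was found in 7 of the 9, as in 49.4% of those genes. The Camk2g transcript used has a 5′ UTR of 1 base.

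The kinase genes are longer. Camk2a lies at chr18:60925618-60988152 (plus strand) and its longest annotated coding sequence has 1470 bases. Camk2b (chr11:5969644-6066362, minus strand) has 2001, Camk2d (chr3:126596302-126846326, plus strand) has 1602 and Camk2g (chr14:20734875-20794088, minus strand) has 1698.

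Totals of assigned reads ranged from 4870813 to 7793244 for RNA and from 5692064 to 22092434 for RPFs. The 9 genes took 0.312% ± 0.016 (SD, n = 4) of all counts in basal RNA and 0.91% ± 0.0636 (SD, n = 5) in basal RPFs. All 5 excitatory neuron markers, all 4 CA1 markers, all 4 CA3 markers and all 4 dentate gyrus markers were detected. Markers of 6 other sources were detected as well: interneurons, astrocytes, oligodendrocytes, microglia, endothelium and thalamus. Detection alone therefore does not tell the labelled tissue from others. In such bulk libraries fewer cells of a type and less RNA per cell cannot be told apart.

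Calm2, Nrgn, Calm3 and Camk2a were among the genes with the most RPFs per coding length in the slices. Levels are given as RPKM, which is the read count scaled to library size (CPM) divided by length in kilobases, where the length was the coding sequence less 60 bases for RPFs and the whole transcript for RNA. In basal RPF libraries the mean level of Calm2 was 4668 ± 547 RPKM (SD, n = 5), position 8 of 13143 genes. Nrgn had 3705 ± 255 RPKM (position 11), Calm3 had 3695 ± 283 (position 12) and Camk2a had 2521 ± 257 (position 25). These were 145 to 269 times the level of the median gene, 17.38 RPKM. Camk2n1 followed with 861.6 ± 107 RPKM, and then Camk2b with 577.9 ± 77.3. Camk2g with 126.2 ± 9.45, Camk2n2 with 121.8 ± 14.6 and Camk2d with 52.03 ± 4.9 closed the order, all still above the median gene.

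In RNA the order was a different one, led by the kinase. Basal Camk2b had 438.5 ± 52.5 RPKM (SD, n = 4; position 87 of 12867 genes) and Camk2a had 346.7 ± 24.9 RPKM (position 126). The calmodulin genes had less, with 188.8 ± 50.3 for Calm3 and 178.9 ± 95.3 for Calm2, and Camk2g had 103.6 ± 3.23. The RNA level of Nrgn was 21.26 ± 5.94 RPKM, at position 3604. Camk2n1 had 14.49 ± 3.84, Camk2d had 10.7 ± 0.955 and Camk2n2 had 7.541 ± 2.51, on either side of the median gene at 9.605 RPKM. Nrgn therefore stood at position 11 by RPF level and position 3604 by RNA level.

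**Figure D1:**
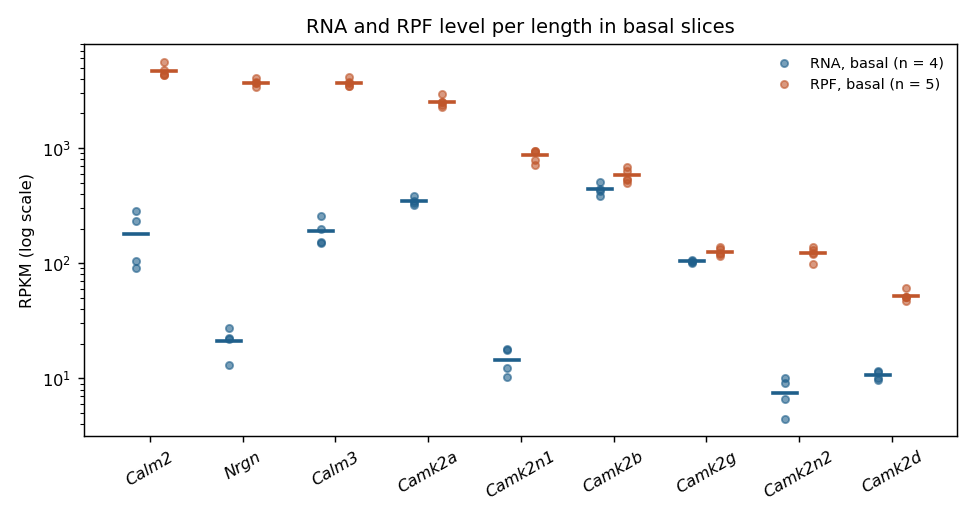
RNA and RPF levels of the 9 genes in basal slices as RPKM on a log axis, 1 point per library and a bar at the mean, ordered by RPF level. Nrgn and Camk2n1 show the widest gap between RNA (means of 21.26 and 14.49 RPKM) and RPF (3705 and 861.6 RPKM), and for Camk2b and Camk2g the gap is small.

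Neighbours in these orders were compared within libraries, as the difference in log2 RPKM between the genes in the same library. By RPF level 6 of the 8 neighbouring pairs kept their order in every basal library, among them Calm3 over Camk2a (difference 0.55 ± 0.19 log2, SD, n = 5) and Camk2b over Camk2g (2.19 ± 0.11). Nrgn and Calm3 did not differ beyond their spread (0.0047 ± 0.13, Nrgn higher in 3 of 5 libraries), nor did Camk2g and Camk2n2 (0.056 ± 0.17, 3 of 5). By RNA level 5 of 8 pairs kept their order, including Camk2b over Camk2a (0.33 ± 0.07, n = 4), while Calm3 and Calm2, Calm2 and Camk2g, and Nrgn and Camk2n1 overlapped. An exact sign-flip permutation test cannot go below a p of 1 in 16 with 5 libraries or 1 in 8 with 4 (two-sided), and every separated pair reached that limit, with an adjusted p of 0.176 over the 24 pairs compared. Where lengths were medians over each gene's coding transcripts, Camk2a came first in both orders. Its median transcript is 1734 bases against the 3244 used otherwise, and its median coding sequence is shorter too, so that its RPF level was then 6548 RPKM and its RNA level 648.6 RPKM.

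The RNA values of the small genes varied more between replicates than those of the kinase genes. Calm2 RNA in the basal libraries was 282.4, 126.8, 110.4 and 342.7 CPM in replicates 1 to 4. Replicates 1 and 4 were thus high and replicates 2 and 3 low, a 3.11-fold range that exceeded the range of 97.6% of 12933 genes. In the same 4 replicates the RPF values of Calm2 spanned 1.29-fold, close to the median gene (1.26-fold). Nrgn RNA spanned 2.08-fold and Camk2n2 RNA 2.24-fold, against 1.5-fold for the median gene. Camk2a, Camk2d and Camk2g were among the steadier genes, with ranges of 1.18, 1.2 and 1.08-fold. The counts behind these values also differed: basal RNA counts were 41 to 76 for Camk2n2 and 136 to 259 for Nrgn, against 5508 to 8001 for Camk2a.

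Relative to its RNA, Nrgn carried one of the highest RPF loads of any gene measured. The RPF to RNA ratio per length is given as log2 relative to the median gene, whose value is 0. It is not the translational efficiency (TE) of the study's methods, for which both kinds of library were mapped to coding sequences, since RNA was here counted on, and divided by, whole transcripts. In basal replicates 1 to 4 the log2 ratio of Nrgn was 6.47, 6.53, 6.05 and 7.42, all far above 0. Its fitted ratio of 6.60 (SE 0.24) was 97.3 times that of the median gene and stood at position 9 of the 12819 genes tested (edgeR, adjusted p = 1.46e-07). Camk2n1 had 4.62, 5.37, 5.21 and 4.86, and a fitted value of 5.02 (SE 0.17, adjusted p = 1.42e-07), or 32.4 times the median gene. Camk2n2, the paralog of Camk2n1, had 3.34, 2.76, 2.54 and 4.08, with a fitted value of 3.14 (SE 0.24, adjusted p = 3.51e-06). The paralogs differed by 1.84 ± 0.95 (SD, n = 4) within replicates, Camk2n1 being higher in every one.

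The calmodulin genes were next. Calm2 had log2 ratios of 3.47, 4.88, 4.67 and 3.07 (fitted 4.02, SE 0.33, adjusted p = 5.15e-06), with replicates 2 and 3 high where its RNA was low. Calm3 had 3.25, 3.95, 3.62 and 2.97 (fitted 3.45, SE 0.18, adjusted p = 4.88e-07). Camk2a stood at 2.0 (SE 0.12, adjusted p = 1.11e-06), with 1.91, 1.91, 1.83 and 2.33 in the replicates, so that it had 3.99 times the ratio of the median gene. Camk2d, the subunit best known from heart, stood at 1.42 (SE 0.12, adjusted p = 7.52e-06). Camk2b and Camk2g lay below the median gene, at -0.51 (SE 0.14, adjusted p = 0.008) and -0.62 (SE 0.11, adjusted p = 0.000542).

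In all, 7 of the 9 genes were called higher than the median gene and 2 lower at an adjusted p under 0.05, where 39.4% of the genes tested were called higher and 39.4% lower. The median over the 9 was 3.14, against 0.0009 over all genes. The calls of Camk2b and Camk2g rest on the transcript length used for RNA. With the longest coding transcript of each gene their log2 ratios were 0.27 and 0.23 and neither was called (adjusted p = 0.103 and 0.0688). With median lengths Camk2g was called in the other direction, at 0.42. The other 7 genes kept their direction and their call with both of these and with no lengths at all. Their size did depend on length: on CPM alone Nrgn stood at 4.59, Camk2n1 at 1.39 and Camk2n2 at 1.33.

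A high ratio is common among genes with short coding sequences in these libraries. Among the 190 genes tested with fewer than 300 coding bases, the median log2 ratio was 3.29, and it was 1.7 among 774 genes of 300 to 499 bases and 0.015 among 4918 genes of 1000 to 1999 bases. Within its own class Nrgn was still at position 7 of 190, 3.32 above the class median, and Camk2n1 was at position 30, 1.73 above it. Camk2n2 was at position 101 of 190, 0.15 below the median of its class. Calm2 and Calm3 stood 2.32 and 1.75 above theirs. Camk2a exceeded 93.9% and Camk2d 86.7% of the genes of their class, whereas Camk2b was near the middle of its class at 54.7%. Camk2g lay 0.64 below the median of its class and exceeded 30.5% of its genes. Whether coding length has a part in the ratios of these genes was not tested.

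**Figure D2:**
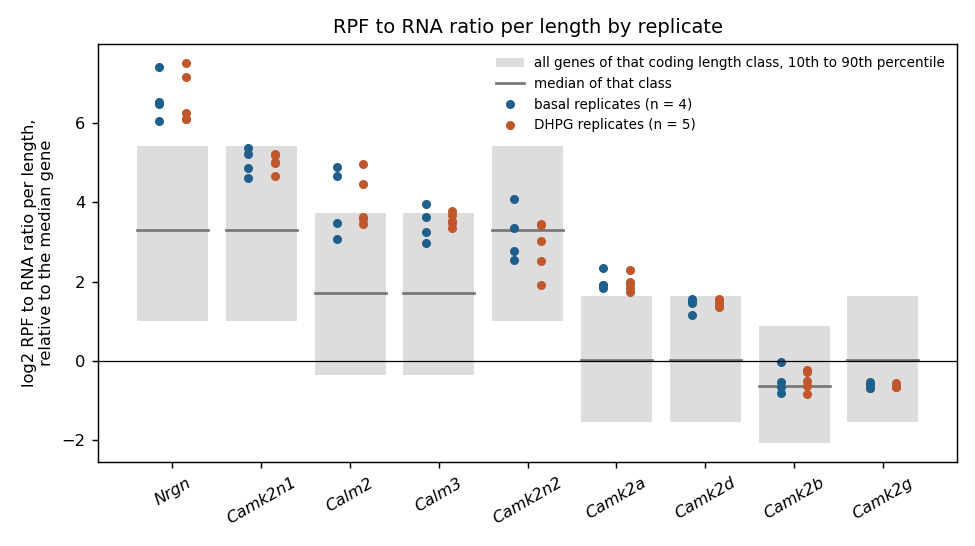
The log2 RPF to RNA ratio per length relative to the median gene, 1 point per replicate (4 basal, 5 DHPG), with grey boxes from the 10th to the 90th percentile of all genes in the same class of coding length and a line at the class median. The points of Nrgn lie above the box in every replicate, those of Camk2n2 and Camk2b scatter around the class median, and basal and DHPG points overlap for every gene.

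By ratio, 6 of the 8 neighbouring pairs kept their order in all 4 basal replicates. Nrgn exceeded Camk2n1 by 1.60 ± 0.76 (SD, n = 4) and Camk2n1 exceeded Calm2 by 0.99 ± 0.61. Calm3 and Camk2n2 (0.27 ± 1.08, the same order in 2 of 4) and Camk2b and Camk2g (0.12 ± 0.29, 3 of 4) did not separate.

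The alpha subunit made up a larger part of the CaMKII footprints than of the CaMKII RNA. Camk2a had 38.6% ± 0.54 (SD, n = 4) of the summed RNA RPKM of the 4 subunit genes and 76.9% ± 1.1 (n = 5) of their summed RPF RPKM. Camk2b, whose subunit binds actin filaments, had 48.6% ± 1.7 of the RNA and 17.6% ± 1.1 of the RPFs. Camk2g, which has been described as a carrier of calmodulin to the nucleus, had 11.6% ± 1.2 and 3.87% ± 0.29, and Camk2d had 1.2% ± 0.16 and 1.6% ± 0.24. No basal RNA library overlapped a basal RPF library in the share of Camk2a, with 38% to 39.2% against 75.2% to 77.9%. In the same replicates the log2 ratio of Camk2a exceeded that of Camk2b by 2.50 ± 0.13 (2.36 to 2.64, n = 4). It was 2.26 with the longest transcripts and 2.86 with median lengths, above 0 with each of these lengths. The shares themselves moved more: with median lengths Camk2a had 53% of the RNA and 87.7% of the RPFs, Camk2b 41.3% and 9.69%, and Camk2g 4.6% and 1.84%, so that Camk2a and Camk2b changed places in RNA.

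**Figure D3:**
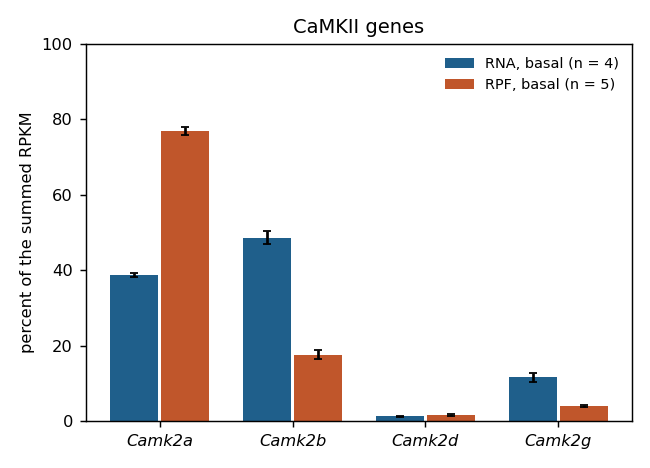
Shares of the summed RPKM in basal slices for the 4 CaMKII subunit genes, as the mean over 4 RNA and 5 RPF libraries with SD error bars and an axis from 0 to 100 percent. Camk2a has 38.6% of RNA and 76.9% of RPFs, and Camk2b has 48.6% and 17.6%.

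Between the calmodulin genes Calm2 and Calm3, the basal RPF level of Calm2 was 1.26 ± 0.0945 times that of Calm3 (SD, n = 5; 1.15 to 1.37), above it in every library. In basal RNA the quotient was 0.9 ± 0.286 (n = 4; 0.605 to 1.18), on both sides of 1. After DHPG it was 1.23 ± 0.0656 in RPFs and 0.942 ± 0.322 in RNA (n = 5 each). The RPF quotients are uncertain in every library alike. Of the 30-base coding windows, 68.7% for Calm2 and 27.7% for Calm3 occurred in other annotated genes, and only uniquely aligned reads were kept.

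The effect of DHPG was tested within replicate pairs by edgeR's quasi-likelihood test with the replicate number as a block, over 12935 genes for RNA and 13208 for RPFs. All 9 genes passed the filter on low counts in every comparison. One of them passed the threshold, Camk2n1 in RPFs.

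Camk2n1 RPFs were higher after DHPG in every replicate. The basal libraries held 140.1, 162, 125.5, 166.6 and 168.4 CPM in replicates 1 to 5, and the DHPG libraries 166.2, 175.1, 142.4, 186.5 and 179.7. As groups they overlapped, because replicate 3 was low and replicates 4 and 5 were high in both, but each DHPG library exceeded its own basal partner (5 of 5), by 0.093 to 0.25 log2. The fitted rise was 0.15 log2 (SE 0.033, 95% interval 0.087 to 0.22), or 1.11-fold (adjusted p = 0.0252). It was 1 of 29 genes called at an adjusted p under 0.05, or 0.22% of those tested, and of 24 called higher, or 0.182%. The call was kept by DESeq2 with the same block (adjusted p = 0.0282). It was lost when replicate 1, 2, 3 or 4 was left out (adjusted p = 0.156, 0.102, 0.0545 and 0.0831), was kept without replicate 5 (0.0256), and was lost without the block (adjusted p = 1, estimate 0.16). Its RNA was 78.48, 54.32, 45.63 and 79.23 CPM in basal replicates 1 to 4 and 91.37, 75.12, 53.14 and 79.69 in the DHPG partners. That is higher in 4 of 4, with an estimate of 0.22 log2 (SE 0.082) that missed the RNA threshold (adjusted p = 0.555).

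Markers of several other sources were higher in the DHPG RPF libraries as well, and others were not. The summed RPF level of the 10 thalamus markers was 183 to 230 CPM in basal and 190 to 300 CPM in DHPG libraries, with all 10 estimates above 0 and a median of 0.37 log2. By pair, in replicates 1 to 5, it went from 187 to 221, 183 to 256, 191 to 259, 228 to 300 and 230 to 190 CPM. The Camk2n1 RPF differences in these pairs were 0.247, 0.112, 0.182, 0.163 and 0.0934 log2. The summed level of the 6 oligodendrocyte markers was 3985 to 8383 CPM in basal and 4596 to 9443 in DHPG libraries, with 5 of 6 estimates above 0 (median 0.092). Estimates were above 0 for 6 of 6 astrocyte markers (median 0.054) and 5 of 5 microglia markers (median 0.087), and for 0 of 4 endothelial markers (median -0.13). Interneuron markers (4 of 7 above 0, median 0.0074) and CA1 markers (2 of 4, median -0.0032) showed no common direction. For the 5 excitatory neuron markers the summed level was 1253 to 1346 and 1226 to 1383 CPM (median 0.014). No marker on these lists was at 0 in all libraries of a group. The part of these shifts in the Camk2n1 result was not tested.

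For the other 8 genes the RPF difference between DHPG and basal missed the threshold (adjusted p = 0.53 to 0.998). Their 95% intervals ran from -0.147 at the lowest (Camk2d) to 0.151 at the highest (Camk2n2) on the log2 scale. Nrgn RPFs were 643.4, 643.3, 601.2, 724.4 and 666.9 CPM in basal replicates 1 to 5 and 655.7, 645.2, 576.5, 725.6 and 750.9 with DHPG. The groups overlapped almost fully, with an estimate of 0.029 (SE 0.031, 95% interval -0.033 to 0.09). Camk2a RPFs were 3209, 3341, 3561, 4154 and 3512 CPM in basal and 3307, 3579, 3852, 4044 and 3623 with DHPG, higher in 4 of 5 pairs, with an estimate of 0.053 (SE 0.029, unadjusted p = 0.0789). Calm3 had 0.05 (SE 0.029) and Calm2 0.01 (SE 0.029). Camk2b, Camk2g and Camk2n2 had estimates from -0.0007 to 0.03, and Camk2d had -0.063 (SE 0.042). The median over the 9 genes was 0.029, against 0.003 over all genes.

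**Figure D4:**
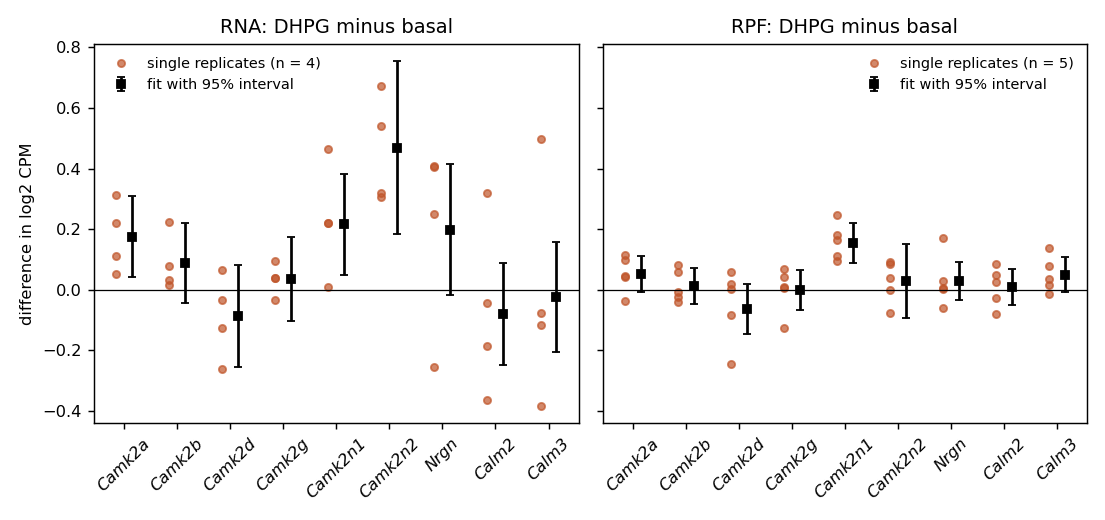
Differences in log2 CPM between DHPG and basal for RNA (left) and RPFs (right), with 1 point per replicate pair (4 for RNA, 5 for RPFs) and the fitted value with its 95% interval. Among the RPF intervals only that of Camk2n1 (0.087 to 0.22) passed the threshold, and the RNA intervals are wider for every gene.

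In RNA none of the 9 genes passed the threshold of the study's RNA comparison, an adjusted p under 0.01, which 1 of 12935 genes passed (0.00773%). At an unadjusted p under 0.05 there were 3 of the 9, all higher with DHPG, by edgeR, and 2 by DESeq2, against 8.02% of all genes by edgeR. Camk2n2 RNA was 8.484, 12.96, 11.71 and 5.78 CPM in basal replicates 1 to 4 and 10.57, 16.26, 17.2 and 9.401 in their DHPG partners, higher in 4 of 4. The estimate was 0.47 log2 (SE 0.14, unadjusted p = 0.00226, adjusted p = 0.536), position 104 of all genes from the highest, on counts of 41 to 101. Camk2a RNA was 1085, 1133, 1233 and 1047 CPM in basal and 1266, 1175, 1333 and 1301 in the partners, also higher in 4 of 4. Its estimate was 0.18 (SE 0.065, adjusted p = 0.547), and its unpaired DHPG library of replicate 5, at 934.6 CPM, was the lowest of all 9 RNA libraries. Nrgn RNA had an estimate of 0.20 (SE 0.11, adjusted p = 0.649) and was higher in 3 of 4 pairs. That estimate depended on the replicates, at 0.37 when replicate 3 was left out, 0.11 when replicate 1 was and 0.13 when replicate 2 was, and at 0.057 with no block.

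Calm2 and Calm3 RNA did not follow one direction. For Calm2 the pairs differed by -0.044, 0.32, -0.19 and -0.36 log2, and for Calm3 by -0.12, 0.50, -0.076 and -0.38, so that replicate 2 was higher and replicates 1, 3 and 4 lower in both. The estimates were -0.08 (SE 0.083) and -0.025 (SE 0.089), and both turned above 0 without replicate 4 (0.024 and 0.096). Camk2b, Camk2d and Camk2g had estimates of 0.088, -0.086 and 0.035, each within 2 of its standard errors.

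**Figure D5:**
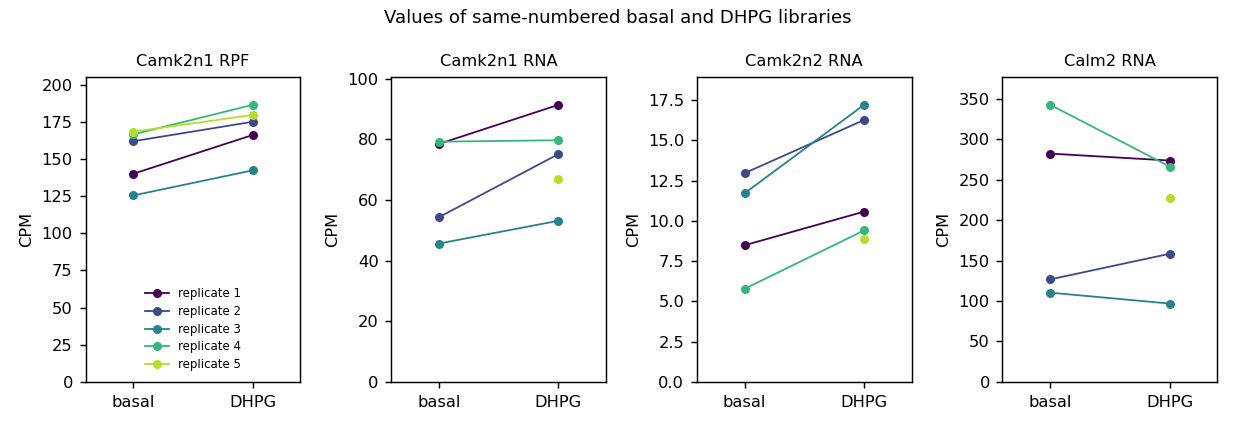
CPM in same-numbered basal and DHPG libraries, joined by lines, for Camk2n1 RPFs, Camk2n1 RNA, Camk2n2 RNA and Calm2 RNA, with axes from 0. All 5 lines rise for Camk2n1 RPFs and all 4 for Camk2n2 RNA, whereas the Calm2 RNA lines lie at high (replicates 1 and 4) or low (replicates 2 and 3) levels and point both ways.

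Correction for the replicate number by ComBat followed by DESeq2 without a block is the order of steps in the study's methods. It called Camk2a in RNA (0.17 log2, adjusted p = 0.00271). In RPFs it called Camk2n1 (0.15, adjusted p = 1.07e-05), Camk2a (0.056, adjusted p = 0.00528) and Calm3 (0.047, adjusted p = 0.0349). It gave no adjusted p for Nrgn in RNA or for Camk2n2 in RNA and RPFs. That procedure called 102 genes in RNA and 433 in RPFs, and its test does not count the degrees of freedom that the correction used.

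The RPF to RNA ratio was not called changed by DHPG for any gene of 13320 (0% called). At an unadjusted p under 0.05 there were 871 of them by edgeR, with 1 of the 9 genes by edgeR and 2 by DESeq2. That gene was Camk2n2, at -0.44 log2 (SE 0.14, unadjusted p = 0.00303, adjusted p = 0.682), on RPFs that differed by 0.03 and RNA that differed by 0.47. Its ratio relative to the median gene was 3.34, 2.76, 2.54 and 4.08 in the basal replicates and 3.03, 2.51, 1.92, 3.42 and 3.46 in the DHPG replicates. As groups these overlapped, but in every same-numbered pair the DHPG value was the lower one. Nrgn had -0.17 (SE 0.10), Camk2a -0.12 (SE 0.062) and Camk2n1 -0.057 (SE 0.081), while Calm2 and Calm3 had 0.097 and 0.079 with standard errors of 0.083 and 0.095. The median over the 9 was -0.057, against -0.002 over all genes.

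Other genes of the pathway were followed in 6 lists with 52 genes, of which 51 were tested. They covered calmodulin reservoirs and other calmodulin genes (as 1 list), other CaM kinases and calcineurin. The remaining lists held other calmodulin-regulated enzymes, CaMKII anchors and substrates, and dendritic mRNAs. None of the 51 was called in RNA or in RPFs by edgeR, with 11 and 6 at an unadjusted p under 0.05, nor by DESeq2, with 7 and 1. Over all genes 8.02% and 10.8% reached an unadjusted p under 0.05 by edgeR. ComBat followed by DESeq2 called 5 of the 51 in RNA (Adcy1, Dlg4, Dlgap3, Psd and Shank3) and 4 in RPFs (Adcy1, Map2, Pcp4 and Shank1). These are named here because that procedure called them. Over all genes it called 102 of 12844 in RNA and 433 of 13154 in RPFs. The 7 dendritic mRNAs had RNA estimates above 0 in 7 of 7, with a median of 0.15 log2 against 0.0068 over all genes, and RPF estimates above 0 in 6 of 7 with a median of 0.049. In the same RNA comparison the estimates of 6 of 6 oligodendrocyte markers (median 0.17) and 8 of 8 thalamus markers tested (0.60) were above 0. So were those of 5 of 5 excitatory neuron markers (0.071) and 4 of 4 CA1 markers (0.085). For CA3 and dentate gyrus markers 3 of 4 each were above 0 (0.131 and 0.057), and for astrocyte markers 5 of 6 (0.044). Microglia (3 of 5, median 0.0015), interneuron (2 of 7, -0.072) and endothelial markers (1 of 4, -0.116) showed no common rise. The part of these shifts in the result for the dendritic mRNAs was not tested. Among the dendritic mRNAs the lowest p was that of Shank1, which encodes a postsynaptic scaffold, in RNA (0.20, SE 0.074, adjusted p = 0.547). In RPFs it was that of Map2, a dendritic microtubule protein (0.09, SE 0.031, adjusted p = 0.246). Among the anchors and substrates the lowest RNA p was that of the scaffold Shank3 (0.27, SE 0.069, adjusted p = 0.323) and the lowest RPF p that of Actn1, an actin crosslinker (0.079, SE 0.042, adjusted p = 0.502).

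The reservoir genes Gap43, Pcp4 and Pcp4l1 were called higher than the median gene in basal ratio, with log2 ratios of 1.88 (SE 0.15) for Gap43, 4.13 (SE 0.12) for Pcp4 and 5.14 (SE 0.22) for Pcp4l1. Gap43, the growth-cone protein that binds calmodulin through the same kind of motif as neurogranin, had the lowest of these. The ratio of Pcp4l1 rests on little RNA, with a basal RNA level of 1.11 ± 0.339 RPKM (SD, n = 4). Pcp4 had 28 ± 1.98 and Gap43 had 42.7 ± 9.18. The coding sequences have 189 bases for Pcp4, 207 for Pcp4l1 and 684 for Gap43. Among all genes tested with at most 299 coding bases, 94.7% were called higher, and the median log2 ratio was 3.29. Among those with 500 to 999 bases, 63.4% were called higher, and the median was 0.878. Whether coding length has a part in the ratios of the reservoir genes was not tested. With DHPG, Pcp4 had the lowest p of the list in both RNA (0.37, SE 0.11, adjusted p = 0.536, higher in 4 of 4 pairs) and RPFs (0.095, SE 0.036, adjusted p = 0.317, 4 of 5). Of the 10 other CaM kinases 4 were called higher and 4 lower in basal ratio, near the 39.4% in each direction over all genes, and their lowest p values with DHPG were those of Camk1 RNA (-0.19, SE 0.075, adjusted p = 0.558) and Eef2k RPFs (-0.14, SE 0.06, adjusted p = 0.409). Eef2k encodes the calmodulin-dependent kinase that phosphorylates elongation factor 2.

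Of 14 other calmodulin-regulated enzymes 11 were called lower than the median gene in basal ratio and 3 higher, with a median of -1.02. Over all genes 39.4% were called in each direction. The median log2 ratio was -0.644 among all genes tested with 2000 to 3999 coding bases, and -1.35 among those with 4000 or more. Whether coding length has a part in the ratios of these enzymes was not tested. Adcy1, the calmodulin-stimulated adenylyl cyclase, had the lowest p with DHPG in this list, at 0.13 in RNA (SE 0.063, adjusted p = 0.615) and 0.12 in RPFs (SE 0.043, adjusted p = 0.269). For calcineurin, the calmodulin-activated phosphatase, 4 of 6 genes were called higher and 1 lower, against the same 39.4% in each direction, with a median of 0.98. Its lowest p values were those of the regulator Rcan2 in RNA (0.26, SE 0.094, adjusted p = 0.545) and of the catalytic subunit Ppp3cc in RPFs (-0.11, SE 0.083, adjusted p = 0.691).

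The genes whose RPF values moved most like those of Camk2a over the 10 RPF libraries were Tanc1, Arf6 and Btbd3. Likeness was measured as the root mean square difference of log2 CPM after centring each gene on its own mean, and was 0.028, 0.031 and 0.035, where the median gene had 0.19. For Nrgn they were Atp6v1g2, Gdap1l1 and Nefl, with 0.039, 0.042 and 0.044. The member most like Camk2a was Camk2g (0.10) and the member least like it was Calm2 (0.21). The 10 libraries are 5 replicate pairs, so the values cover differences between replicates as well as between basal and DHPG.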

How the data were processed

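The authors deposited RSEM expected counts per gene, as whole numbers, in 1 table for RNA and 1 for RPFs. Per the study's methods, reads were trimmed (cutadapt 1.7.1, Trimmomatic 0.32), cleared of rRNA and tRNA (Bowtie2 2.1.0), aligned to mm10 (TopHat2 2.0.9), reduced to unique reads and unique molecular identifiers, and counted (RSEM 1.2.11) on whole transcripts for RNA and on coding sequences less 30 bases at each end for RPFs. RNA was depleted of rRNA and fragments of 100 to 150 nt were selected. Footprints of 26 to 34 nt were kept. In all, 12 columns that belong to no sample of the series were not used.

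Counts were analysed in R 4.3.3 with edgeR 4.0.16 (TMM, filterByExpr, quasi-likelihood F test, replicate number as a block, Benjamini-Hochberg adjustment over all genes tested). Thresholds for RNA and RPFs followed the study's DHPG comparison (adjusted p under 0.01 and 0.05). An adjusted p under 0.05 was also used for ratios. The change of the ratio was an interaction term between treatment and kind of library, in place of the study's anota2seq. The basal ratio used replicates 1 to 4, with offsets for length. Lengths came from GENCODE M21, with 98.7% of genes matched. DESeq2 1.42.0 and ComBat (sva 3.50.0) gave alternatives, and log2 CPM used a prior count of 2. Fits were tested on simulated data. Named genes were the 9 members, the gene with the lowest p of each pathway list in RNA and RPFs, any list gene past the threshold, and the 3 genes most like Camk2a and Nrgn. The basal ratios of 3 reservoir genes were named after they were seen. One gene of the lists is not reported here by name, but is in the list counts. Members and lists were chosen with earlier results of these data known. The replicate numbers marked batches in the study's methods, and the deviations of same-numbered libraries correlated (0.308 to 0.741 in RNA, 0.259 to 0.523 in RPFs, against at most 0.467 and 0.29 between different numbers, with basal RNA replicate 2 nearer to DHPG replicate 3 than to its own number). Intervals and standard errors cover the spread between these pooled lysates.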

Additional observations from a re-analysis of the deposited data

How the results depend on the processing

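Where 1 gene passed the RNA threshold and 29 the RPF threshold, 7 and 96 passed with no filter on low counts and 102 and 433 after ComBat and DESeq2. DESeq2 with the block gave 0 in RNA. The calls depended on pairing the libraries by replicate number: with no replicate block, 0 genes were called in RNA and 0 in RPFs, and Camk2n1 RPFs had 0.16 (adjusted p = 1). The unpaired fit changed no other call of the 9 genes. Without 1 replicate the counts ranged from 0 to 22 in RNA (22 without replicate 2) and from 3 to 71 in RPFs (3 with replicate 2 left out, 10 with replicate 1, 50 with replicate 5 and 71 with replicate 3). For the change of the ratio, 0 genes became 6 with no filter and 0 to 8 without 1 replicate (8 without replicate 2). The counts for the basal ratio and for separated neighbours stayed within 1.5 times, and without replicate 2 the basal ratio of Camk2b was not called (-0.44, adjusted p = 0.0529).

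Several small estimates, none of them called, changed sign when 1 replicate was left out. RNA values ranged from -0.20 to 0.024 for Calm2 and from -0.19 to 0.096 for Calm3. RPF values ranged from -0.0051 to 0.026 for Camk2b, from -0.022 to 0.032 for Camk2g (0.0021 with ComBat), from -0.0085 to 0.052 for Nrgn and from -0.0090 to 0.033 for Calm2. Ratio changes ranged from -0.0100 to 0.047 for Camk2d, from -0.13 to 0.020 for Camk2n1, from -0.013 to 0.23 for Calm2 and from -0.024 to 0.24 for Calm3. The basal ratio of Camk2g was 0.42 with median lengths, 0.23 with the longest transcript and 0.16 with no lengths, and that of Camk2b was 0.27 with the longest transcript and 0.32 with no lengths. These turns follow the lengths put in. The causes of the other changes were not tested. The longest-transcript lengths and an RNA threshold of 0.05, which also gave 1 gene, were chosen after seeing the data. Depth limits the RNA values of Camk2n2 most.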
